A study of Mus musculus with 2 samples.

Results

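The genes of MHC class I antigen presentation were examined in TCRαβ+CD8αα+ intraepithelial lymphocytes (IELs) of the mouse small intestine. They are 10 genes of the pathway, taken by name with no threshold on a value though with earlier results of these data known, of 20887 named genes on the array. B2m encodes the light chain, H2-K1, H2-D1, H2-T3, H2-M3 and Cd1d1 encode heavy chains, Tap1, Tap2 and Tapbp serve peptide transport and loading, and Nlrc5 encodes a transactivator of class I genes. They were read by 13 probes on 32 spots of each array, and each of the 13 probes was well above background on both arrays by the scanner software.

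Both groups of mice were of the C57BL/6 strain, pooled male and female and 8 to 12 weeks old, with 1 RNA pool and 1 array per group. In the labels, Control mice are Rbpjf/f and RFF4 mice are CD4-Cre Rbpjf/f, so the floxed Rbpj allele is shared. Rbpj encodes the DNA-binding partner of cleaved Notch receptors. The CD4-Cre transgene acts in T cells from the stage at which thymocytes express CD4, so that cells outside the T lineage keep Rbpj. The study itself instead describes control mice as Rbpj+/+ with CD4-Cre where it introduces them, and this difference was not resolved here. The IELs were sorted as TCRαβ+CD8αα+ cells negative for TCRγδ, CD4 and CD8β, and RNA of several isolations was pooled. With 1 array per group there is no replicate check, and no p-value or error across animals can be given.

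MHC class I molecules are cell surface complexes of a heavy chain and β2-microglobulin that show peptides from inside the cell to CD8 T cells and natural killer receptors. Peptides made by the proteasome enter the endoplasmic reticulum through the Tap1 and Tap2 transporter, and tapasin, encoded by Tapbp, brings the transporter together with empty class I molecules. Nonclassical heavy chains have narrower roles. H2-T3 encodes the thymus leukemia antigen (TL), which intestinal epithelial cells display and which binds the CD8αα homodimer carried by these IELs. H2-M3 presents formylated peptides, and CD1d presents lipids to natural killer T cells.

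Promoters are shown for the genes whose differences are compared most below, because the classical class I promoters share a set of short elements on which Nlrc5 acts. RefSeq start sites on the build GRCm38.p6 were found for 7 of the 10 genes, and the 250 bases before the start site, written 5′ to 3′ on the strand of the gene, are printed for 5 of them. Capitals mark matches, on either strand, to the RBPJ core TGGGAA, the Y box CCAAT and the X2 half-site TGACG. They also mark the NF-κB consensus and a fixed pattern of letters for the interferon-stimulated response element. Among the printed promoters this interferon pattern matched in B2m only. Other forms of the element were not searched, so lower case letters do not show that a promoter lacks an interferon element. For H2-K1, which has more than 1 start site, the first of the reference table is shown.
B2m, chr2:122147437-122147686, plus strand: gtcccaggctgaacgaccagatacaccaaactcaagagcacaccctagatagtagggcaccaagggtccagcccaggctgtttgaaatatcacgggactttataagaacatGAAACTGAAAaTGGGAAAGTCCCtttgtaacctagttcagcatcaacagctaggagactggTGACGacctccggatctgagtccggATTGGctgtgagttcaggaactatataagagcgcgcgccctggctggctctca
H2-K1, chr17:34000348-34000597, minus strand: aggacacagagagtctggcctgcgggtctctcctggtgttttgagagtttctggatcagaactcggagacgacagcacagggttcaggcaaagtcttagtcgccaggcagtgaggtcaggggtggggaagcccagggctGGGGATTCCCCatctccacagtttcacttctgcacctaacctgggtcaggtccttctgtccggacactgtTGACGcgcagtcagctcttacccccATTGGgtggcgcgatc
H2-D1, chr17:35262844-35263093, plus strand: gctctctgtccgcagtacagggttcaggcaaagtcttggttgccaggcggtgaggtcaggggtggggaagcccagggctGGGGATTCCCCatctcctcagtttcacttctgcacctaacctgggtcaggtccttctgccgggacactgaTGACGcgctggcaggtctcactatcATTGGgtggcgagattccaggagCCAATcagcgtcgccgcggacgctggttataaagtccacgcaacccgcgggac
H2-M3, chr17:37269984-37270233, plus strand: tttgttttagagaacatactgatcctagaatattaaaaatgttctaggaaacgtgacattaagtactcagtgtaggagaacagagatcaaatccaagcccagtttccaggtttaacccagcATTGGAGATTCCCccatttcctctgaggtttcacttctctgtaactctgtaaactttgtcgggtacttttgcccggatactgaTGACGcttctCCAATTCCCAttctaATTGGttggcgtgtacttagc
H2-T3, chr17:36190152-36190401, minus strand: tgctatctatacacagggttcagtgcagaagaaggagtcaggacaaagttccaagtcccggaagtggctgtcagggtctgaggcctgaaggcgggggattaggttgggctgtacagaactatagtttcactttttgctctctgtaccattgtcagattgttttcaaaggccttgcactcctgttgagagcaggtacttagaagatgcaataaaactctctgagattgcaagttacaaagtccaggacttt

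Among 32851 promoters of the same length, 17.8% held TGACG, 33.8% CCAAT, 21.6% TGGGAA, 2.98% the interferon pattern and 3.9% the NF-κB consensus. TGACG was followed by ATTGG, the Y box on the other strand, at a distance of 25 bases from first base to first base in B2m, H2-K1, H2-D1 and H2-M3. This spacing was searched for after the positions had been seen. It was present in 4 of the 7 genes with a promoter, in 18 of 32851 promoters (0.0548%), and in 0 of 19 other class I heavy chain genes. In B2m the first base of TGACG lay at -78 from the start site, in H2-D1 at -101 and in H2-M3 at -46. H2-K1 and H2-D1 shared an unbroken run of 47 bases that contains the NF-κB match. The consensus allows a choice of base at some positions and matches there on both strands. In B2m the TGGGAA match overlaps the NF-κB match, and in H2-M3 both the NF-κB match and the reverse of TGGGAA overlap a Y box match. The H2-T3 window held none of the 5 motifs, which says only that these letters are not in that window. Matches are descriptions of sequence and not sites of binding.

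Values are log2 signals after subtraction of background, relative to the 75th percentile of the gene spots of the same array, and differences are RFF4 minus Control. Of 59305 gene spots, 57.2% were well above background on the Control array and 49.7% on the RFF4 array, and the median signal over background of such spots was 9.47 and 5.78. A difference could be given for 13513 genes, with a median of -0.015 and a range from the 10th to the 90th percentile of -0.74 to 1.16. Between-spot error, taken from 196 probes that have 10 spots on each array, gave a log2 difference a technical SD of 0.128, which covers spotting and scanning only. The brightest Rbpj probe read 1.96 on the Control array and 2.28 on the RFF4 array, a difference of 0.32, and the other Rbpj probe read -1.44 and -0.62, a difference of 0.82. Their position against the floxed exons was not determined, so that the arrays are named by their labels. Each number compares 2 RNA pools and not 2 genotypes in replicate, and in a pool of cells fewer cells of a type and less RNA per cell cannot be told apart.

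The light chain and the classical heavy chains were moderately higher on the RFF4 array with this scaling. B2m read 8.07 and 8.23 on its 2 Control spots and 8.72 and 8.82 on its 2 RFF4 spots, a log2 difference of 0.62 or 1.54-fold. H2-K1, a classical heavy chain, read between 8.53 and 8.65 on 10 Control spots (mean 8.60, SD 0.040) and between 9.15 and 9.22 on 10 RFF4 spots (mean 9.19, SD 0.024), a difference of 0.58. A further H2-K1 probe went from 7.74 to 8.30, a difference of 0.56, so that the probes of this gene differed by less than the technical SD. H2-D1, the other classical heavy chain of this strain, went from 8.12 to 8.50, a difference of 0.38. The differences of H2-K1 and B2m were 0.04 apart on the log2 scale with a technical SD of 0.099, whereas H2-D1 differed by 0.23 less than B2m with a technical SD of 0.157. Class I heavy chain genes are near-identical in long stretches, and since the probe sequences were not used here, how far a probe of one reads another is not known.

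**Figure D1:**
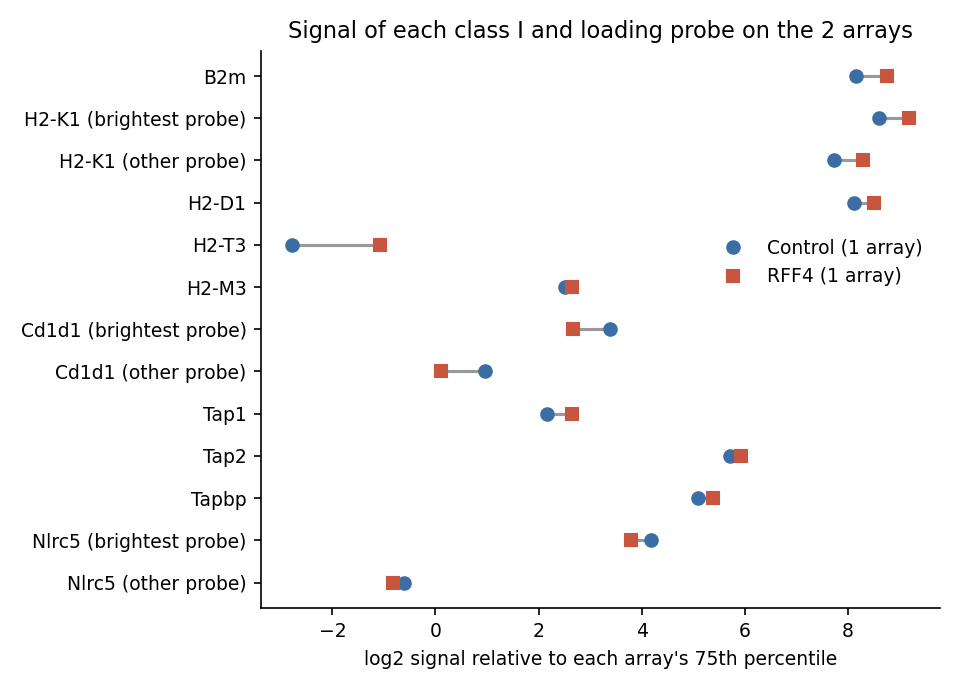
Log2 signal of each of the 13 probes relative to the 75th percentile of its array (horizontal axis), with 1 point for the Control array and 1 for the RFF4 array and a line joining them. The points lie close together for most genes, H2-T3 has the widest gap (-2.78 and -1.07), and Cd1d1 and Nlrc5 have the RFF4 point on the left; positions of different probes are not comparable with each other.

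The nonclassical heavy chains each behaved differently. H2-T3 was the only one of the 10 genes past 2-fold. It went from -2.78 on the Control array to -1.07 on the RFF4 array, a log2 difference of 1.71 or 3.28-fold, on 1 probe with 1 spot per array. Its signal before scaling was 74.0 units on the Control array and 108 on the RFF4 array, 2.12 and 2.30 times the local background of 35 and 47 units. It was also the only probe of the 13 whose unscaled signal was higher on the RFF4 array, while 12 were lower. Genes as dim as H2-T3 spread widely between these arrays. In the bin of all genes that holds H2-T3, the second lowest of 8 by signal, 19.9% were more than 2-fold higher and the 90th percentile was 1.40. Among all 13513 genes, 12.3% were higher and 5.06% lower by more than 2-fold, and among the 10 class I genes the counts were 1 and 0.

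H2-M3 went from 2.51 to 2.64, a difference of 0.13, which is about the size of the technical SD. Cd1d1 was lower on the RFF4 array on both of its probes. The brightest went from 3.38 to 2.67, a difference of -0.71 or 1.63-fold lower, and its unscaled signal was 5306 on the Control array and 1447 on the RFF4 array. The other Cd1d1 probe went from 0.96 to 0.11, a difference of -0.85, so that both probes had the same direction. H2-T3 and Cd1d1, which mark the ends of the range, were 2.42 apart in their differences, with a technical SD of 0.181.

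Tap1 and Tapbp were slightly higher on the RFF4 array with this scaling, and Tap2 differed by less than 2 technical SDs. Tap1 read between 2.10 and 2.23 on 10 Control spots (mean 2.17, SD 0.040) and between 2.62 and 2.69 on 10 RFF4 spots (mean 2.65, SD 0.023), a difference of 0.49 or 1.40-fold. The spots of the arrays did not overlap for H2-K1 and for Tap1, the only ones of the 10 genes with 10 spots. Among all 196 probes with 10 spots, 38.3% had every RFF4 spot above every Control spot and 34.2% had every one below, so spots that do not overlap are common between these arrays. Tap2 went from 5.71 to 5.92, a difference of 0.21, and Tapbp from 5.10 to 5.39, a difference of 0.29. The subunits of the transporter differed from each other by 0.28 in their differences, with a technical SD of 0.134.

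**Figure D2:**
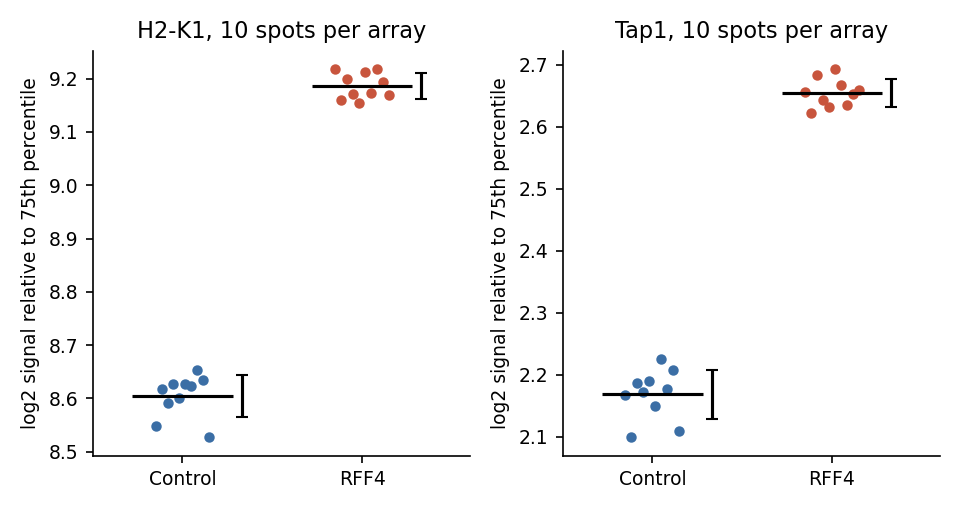
Log2 signal of every spot of the 10-spot probes of H2-K1 (left) and Tap1 (right), relative to the 75th percentile of each array. Each point is 1 spot, the horizontal line is the mean and the bar is the SD over spots; the vertical axes do not start at 0, and for both genes all RFF4 spots lie above all Control spots.

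Nlrc5, the transactivator that assembles on class I promoters, was lower on the RFF4 array while the classical genes it acts on were higher with this scaling. Its brightest probe went from 4.19 to 3.80, a difference of -0.39 or 1.31-fold lower, and its other probe from -0.61 to -0.82, a difference of -0.21. The difference of Nlrc5 was 0.97 below that of H2-K1, with a technical SD of 0.134, and this gap was between 0.37 and 0.97 over the 11 ways of processing tried.

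Over the 10 genes the median difference was 0.34, beside -0.015 over all genes. B2m, H2-K1, H2-D1, Tap2 and Tapbp lie in the brightest of the 8 bins by signal, whose own median was 0.14. Above that bin median, B2m was higher by 0.48, H2-K1 by 0.44, H2-D1 by 0.24, Tapbp by 0.15 and Tap2 by 0.07. The signal was higher on the RFF4 array for 8 genes and lower for 2, where 48.9% of all genes were higher and 51.1% lower. By more than 2 technical SDs (0.256), 6 genes were higher (B2m, H2-K1, H2-D1, H2-T3, Tap1 and Tapbp) and 2 were lower (Cd1d1 and Nlrc5), and H2-M3 and Tap2 lay within. Of all genes, 33.2% were higher and 32.5% lower by that measure. These counts cover genes of 1 pathway on the same pair of arrays and are not replicates.

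**Figure D3:**
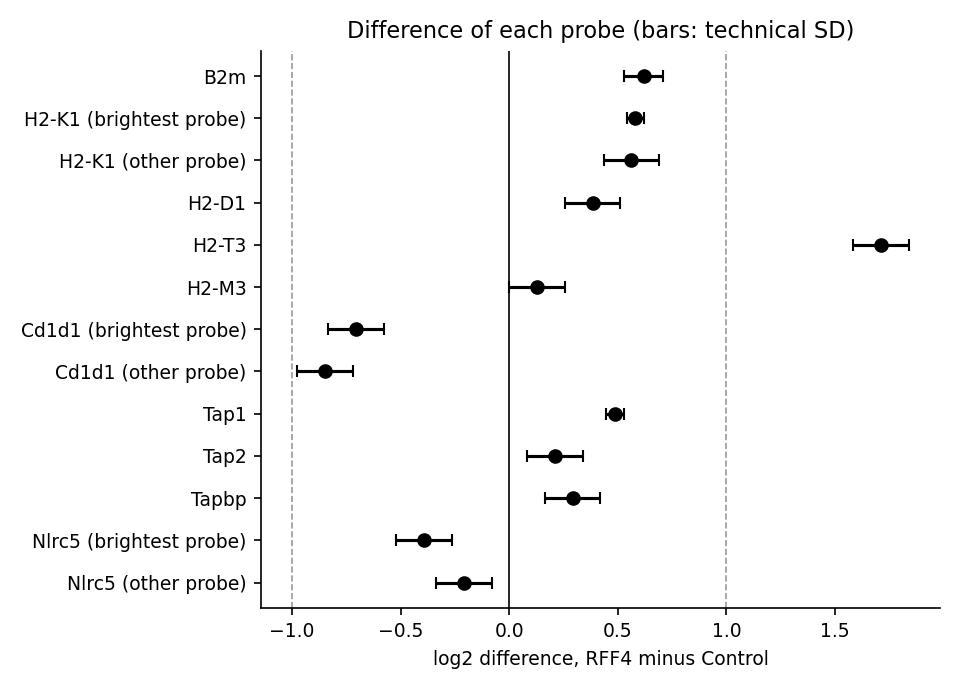
Log2 difference, RFF4 minus Control, of each of the 13 probes (horizontal axis). Bars are the technical SD of the difference for the number of spots of the probe, dashed lines mark 2-fold, and only H2-T3 lies beyond them; Cd1d1 and Nlrc5 lie below 0 on both of their probes.

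The direction of the moderate differences depended on how the arrays were scaled, and the ends of the range did not. Under all 11 ways of processing, H2-T3 was higher on the RFF4 array (0.61 to 1.76) and Cd1d1 (-1.81 to -0.68) and Nlrc5 (-1.50 to -0.30) were lower. B2m, Tap1 and Tapbp were higher under 10 and lower when the spike-in controls, RNA added in equal amount to each labelling, were set equal. H2-K1 was higher under 9, and H2-D1, H2-M3 and Tap2 under 8. These counts hold near-repeats of the main result. Keeping outlier spots, plain ratios, probes above background on both arrays, the mean of all probes and the authors' table changed little. None of the 10 genes moved by more than the technical SD under these, and B2m stayed between 0.61 and 0.62. Setting the spike-in controls equal lowered each difference by 1.11, so that the median of the 10 genes became -0.77 and that of all genes moved by -1.07. By more than 2-fold, 2 of the 10 genes (Cd1d1 and Nlrc5) were then lower and 0 higher, where 55.7% of all genes were lower and 1.45% higher. Relative to that shift the order of the genes is the same, since the same constant is taken from each. Under quantile normalization, which gives both arrays the same distribution and so sets their brightest probes alike, B2m differed by 0.028, H2-K1 by -0.029 and H2-D1 by -0.22. Normexp background correction lowered H2-T3 to 1.28 and turned H2-M3 to -0.12.

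**Figure D4:**
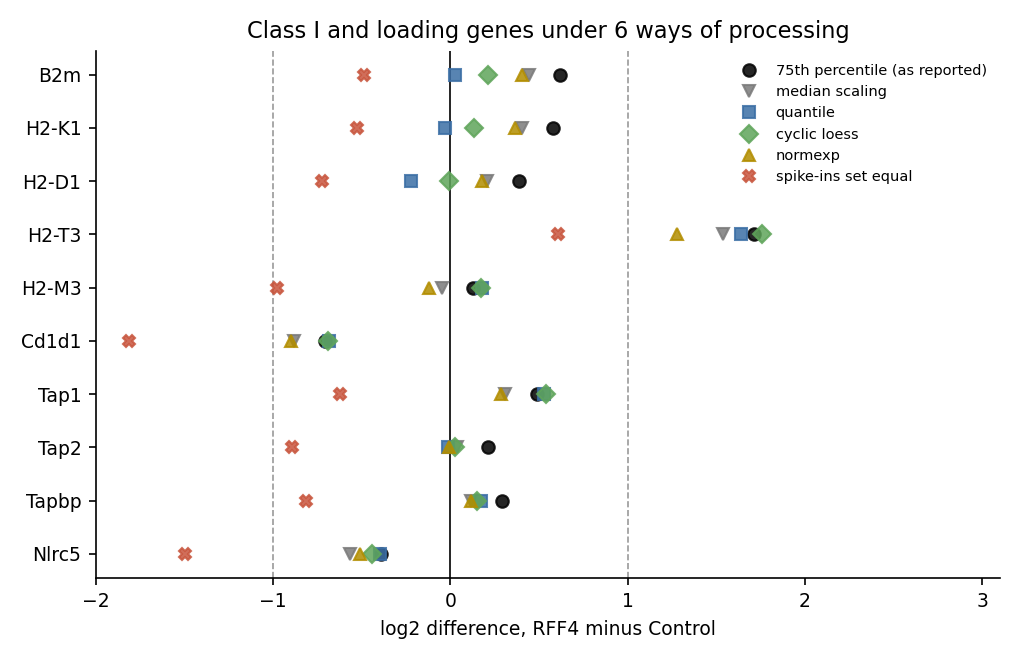
Log2 difference, RFF4 minus Control, of the brightest probe of each of the 10 genes under 6 of the 11 ways of processing (one marker each), with dashed lines at 2-fold. H2-T3 lies right of 0 and Cd1d1 and Nlrc5 left of 0 under all 6, while B2m, H2-K1 and H2-D1 move from 0.62, 0.58 and 0.38 to -0.49, -0.52 and -0.72 when the spike-ins are set equal.

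Other class I heavy chains were taken from a list of 30 symbols, of which 21 are on the array under that symbol and 17 gave a difference. Their median was 0.42, with 12 higher and 5 lower, beside 48.9% and 51.1% of all genes. By more than 2-fold, 3 were higher and 0 lower, beside 12.3% and 5.06% of all genes. The brightest were H2-Q7 (8.17 to 8.59, a difference of 0.42), H2-Q2 (8.02 to 8.51, a difference of 0.49) and H2-T23 (7.97 to 8.49, a difference of 0.52), which encodes Qa-1, the ligand of CD94 and NKG2 receptors. Their differences lie between those of H2-D1 and B2m. The median turned to -0.088 under quantile normalization and to -0.66 with the spike-ins set equal. The 3 past 2-fold had low signals. H2-Q1 went from -2.04 to -0.23, a difference of 1.82. Fcgrt, the neonatal Fc receptor, which does not present peptides and carries antibodies across epithelia, went from -1.79 to 0.01, a difference of 1.80. Azgp1, a secreted relative of class I heavy chains, went from -4.22 to -3.10, a difference of 1.12.

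Of 18 genes of peptide supply and loading, 14 were higher and 4 lower, beside 48.9% and 51.1% of all genes. The median of the 18 was 0.22 and became -0.89 with the spike-ins set equal. The brightest were Hspa5, a chaperone of the endoplasmic reticulum (7.45 to 7.31, a difference of -0.14), Psme2, a subunit of the proteasome activator (6.79 to 7.34, a difference of 0.55), and Psmb10, a catalytic subunit of the immunoproteasome (6.71 to 7.27, a difference of 0.56). The other catalytic immunoproteasome subunits, named after their values were seen, were Psmb8 with a difference of 0.73 and Psmb9 with 0.87. Past 2-fold were Mttp, which loads lipid onto lipoproteins and CD1d (0.66 to 2.28, a difference of 1.62), and Tpp2, a cytosolic peptidase (3.11 to 1.93, a difference of -1.19). Mttp thus had the opposite direction to Cd1d1, whose product it loads.

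Of 22 genes of class I regulation, 21 gave a difference, with 15 lower and 6 higher, beside 51.1% and 48.9% of all genes. Their median was -0.11, but -0.28 with median scaling, -0.21 with normexp and -1.21 with the spike-ins set equal. The brightest were Irf1, an interferon-induced activator of class I genes (6.35 to 5.84, a difference of -0.51 on that probe and -0.02 on the other), Rela, an NF-κB subunit (6.18 to 6.08, a difference of -0.10), and Ifngr1, a chain of the interferon-γ receptor (5.94 to 6.11, a difference of 0.17). Its partner chain Ifngr2 was the only one of the list past 2-fold, from -0.13 to 1.21, a difference of 1.34.

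Genes listed as class I receptors were mostly lower, and whether each of them binds class I molecules was not examined. Of 13 with a difference, 11 were lower and 2 higher, beside 51.1% and 48.9% of all genes. Their median was -0.57, but -0.34 with normexp and -0.24 with only probes well above background on both arrays. Past 2-fold 4 were lower and 2 higher, beside 5.06% and 12.3% of all genes. With normexp, or with probes well above background on both arrays only, 2 were past 2-fold lower, and with the spike-ins set equal 11 were past 2-fold lower and 0 higher, beside 55.7% and 1.45% of all genes. Cd8a, the chain that forms the CD8αα receptor for TL, went from 6.24 to 6.17, a difference of -0.07, and its other probe differed by 0.17. Klrd1, which encodes CD94, went from 6.60 to 6.01, a difference of -0.59, and Klra5, of the Ly49 family, from 4.27 to 3.11, a difference of -1.16. The CD94 partners Klrc1 and Klrc3 were well above background on the Control array and not well above it on the RFF4 array, so that their differences are bounds, -1.46 and -1.49 on the log2 scale, and that of Klrc1 was -0.11 with normexp. Lilrb4a, an inhibitory receptor, went from 3.60 to 2.09, a difference of -1.51, with -0.63 on its other probe. Klra1 (1.43) and Pirb (1.16), inhibitory receptors of the Ly49 and paired immunoglobulin-like families, were higher.

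Markers of other cells moved between the arrays beside these genes. The 15 epithelial markers were all higher on the RFF4 array, 12 of them by more than 2-fold, while with the spike-ins set equal 11 were higher, 0 were past 2-fold and the median went from 1.51 to 0.41. All 15 were well above background on both arrays. Their summed signal, in units of the 75th percentile, was 225 on the Control array and 680 on the RFF4 array, or 316 on the latter with the spike-ins set equal. The brightest were Lgals4 (a difference of 1.86), Krt19 (1.71) and Fabp2 (1.51), and Lgals4, Vil1 (1.80) and Krt20 (1.80) had the largest differences. H2-T3, Fcgrt and Mttp, which epithelial cells are known to express, had differences of 1.71, 1.80 and 1.62, inside the range of 0.31 to 1.86 of those markers. They were picked from the genes past 2-fold higher, and that range also holds B2m, H2-K1, H2-D1 and Tap1. The part of epithelial RNA in these results was not tested.

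Macrophage and dendritic cell markers had a median of 1.45 over 11 genes with a difference, 9 of them more than 2-fold higher. With the spike-ins set equal the median was 0.34, with 7 of the 11 higher and 4 past 2-fold. Their summed signal was 47.5 on the Control array and 57.7 on the RFF4 array, or 26.8 on the latter with the spike-ins set equal. Nearly all of that sum came from Itgax, which read 5.52 and 5.73 on the log2 scale. The next brightest, Csf1r, read 0.01 and 1.46, so the sum does not describe the other markers. Itgax, which IELs also express, differed by 0.20, while the brightest Csf1r probe differed by 1.45 and the brightest Cx3cr1 probe by 3.57. Other probes went down to 0.55 for Csf1r and to 1.89 for Cx3cr1, and with normexp Cx3cr1 differed by 1.95. Lyz2 differed by 2.42. C1qc was not well above background on the Control array and had a bound of 2.52, and Flt3 was not well above it on either array. Class II genes, which such cells and B cells express, had a median of 2.61 over 8 genes, with 6 more than 2-fold higher, and 1.27 with the spike-ins set equal. The 6 were H2-Aa (2.95), H2-Ab1 (2.89), H2-Eb1 (2.38), Cd74 (3.37), H2-DMb1 (2.33) and H2-Oa (2.85). B and plasma cell markers had a median of 1.68 over 5 genes with a difference (0.57 with the spike-ins set equal). Their summed signal was 26.5 on the Control array and 59.1 on the RFF4 array, or 27.4 on the latter with the spike-ins set equal. The brightest were Jchain (a difference of 1.68), Cd79b (-0.26) and Sdc1 (1.02), and Jchain, Mzb1 (2.15) and Ms4a1 (1.79) had the largest differences, while Cd79a, Pax5 and Ebf1 were well above background on neither array. B2m, H2-K1 and the loading genes are expressed by nearly all nucleated cells, and the part of these cells in their values was not tested.

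The T cell identity of both pools was visible in its markers. All 11 T cell markers on the array were well above background on both, with a median difference of 0.29 that turned to -0.25 under quantile normalization, -0.043 under cyclic loess and -0.82 with the spike-ins set equal. Lck went from 8.16 to 8.45, Cd3e from 8.10 to 8.44 and Cd3g from 7.64 to 8.00, while Cd2 differed by 2.22, Cd3d by 0.54 and Lat by 0.47. The difference of 0.35 for Cd3e and of 0.29 for Lck is close to the median of 0.34 of the class I genes. Of the markers of cells removed by the sort, Cd8b1 was well above background on the Control array and not on the RFF4 array, and Cd4 read 1.67 and 1.80 on its brightest probe, a difference of 0.13, while its other probe differed by -0.41.

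**Figure D5:**
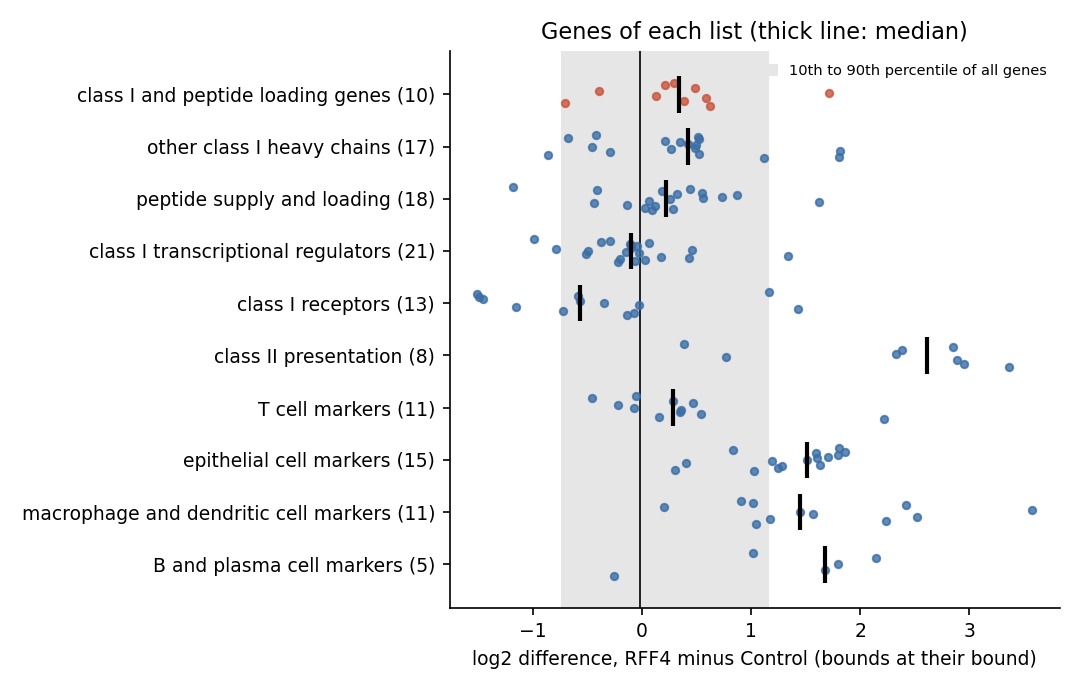
Log2 difference, RFF4 minus Control, of each gene of the class I set, its pathway lists and the marker lists (1 point per gene, number of genes in brackets, thick line at the median, bounds drawn at their bound). The shaded band runs from -0.74 to 1.16, the 10th to the 90th percentile of all genes, the thin line is their median, and most class I genes lie inside it while most epithelial and class II genes lie right of it.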

How the data were processed

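Total RNA of sorted IELs, 150 ng per label, was Cy3-labelled and hybridized by the authors to 1 Agilent array per group, both on the same slide and scan. Per the file headers, the deposited intensity values are background-subtracted signals from Agilent Feature Extraction 10.7.1.1, not normalized between arrays. The authors also deposited a normalized table whose values are log2 centered per probe. Its 62976 lines include 6231 that are empty, and its settings are not given in the sources used here.

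Control and outlier spots were left out, log2 was taken, the 75th percentile of each array was subtracted, and spots of a probe were averaged. Probes counted as well above background where 50% or more of their spots did. The probe with the highest mean signal stood for its gene. A gene dim on 1 array was given a bound against the higher of its own signal there and the lowest signal well above background. Called means more than 2-fold. Of other lists, genes past 2-fold and the 3 brightest were named, and of marker lists the 3 brightest and the 3 with the largest differences, besides markers not well above background. Gene symbols came from RefSeq, and no probe or protein sequences were used. Alternatives were 10: median scaling, quantile normalization, cyclic loess, 8 spike-in probes set equal, normexp with an offset of 50, the authors' table, outlier spots kept, the mean of all probes, plain ratios, and probes above background on both arrays. The genes and lists were chosen with earlier results of these data known. The result of 1 listed gene is not reported here. The steps were tested on simulated data. The tools were Python 3.11.15, numpy 2.4.6, pandas 2.3.3, matplotlib 3.10.9, R 4.3.3 and limma 3.58.1.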

Additional observations from a re-analysis of the deposited data

How the results depend on the processing

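With 1 array per group, no replicate could be left out and no spread between animals is known, and dim genes such as H2-T3 rest on 1 spot. No paired analysis was possible because each group has 1 array and no replicate number. For the 10 genes, the counts past 2-fold and the directions of H2-T3, Cd1d1 and Nlrc5 held under the alternatives, apart from the counts when spike-ins were set equal. Median scaling shifts every difference by a constant of -0.176 and setting the spike-in controls equal by -1.11, by construction. For the other alternatives the cause was not tested. In the other lists counts past 2-fold moved further, most with the spike-ins set equal, where 0 receptors were higher and 11 lower, 0 regulators and 17, 0 other heavy chains and 5, and 0 genes of peptide supply and 7. With the 75th percentile, in the same order, receptors had 2 and 4, but 2 and 2 with normexp and 1 and 4 with median scaling. Other heavy chains had 3 and 0, but 2 and 1 with median scaling or quantile normalization, 2 and 0 with normexp, 3 and 1 with cyclic loess and 3 and 2 with plain ratios. Regulators had 1 and 0, but 1 and 1 with median scaling, normexp or the authors' table. Macrophage markers had 9 higher, but 6 with median scaling and 4 with the spike-ins set equal.

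With the spike-ins set equal, past 2-fold 2 of the 10 genes were lower and 0 higher, beside 55.7% and 1.45% of all genes. Medians were then -0.77 (the 10 genes), -0.66 (other heavy chains), -0.89 (peptide supply), -1.21 (regulators), -1.68 (receptors), 1.27 (class II), 0.41 (epithelial markers), 0.34 (macrophage markers) and -0.82 (T cell markers). Single genes were at -0.49 (B2m), -0.52 (H2-K1, and -0.54 on its other probe), -0.72 (H2-D1), 0.61 (H2-T3), -0.98 (H2-M3), -1.81 (Cd1d1), -0.62 (Tap1), -0.90 (Tap2), -0.81 (Tapbp) and -1.50 (Nlrc5). With median scaling, medians were 0.16 (the 10 genes), 0.24 (other heavy chains), 0.043 (peptide supply), -0.28 (regulators), -0.74 (receptors) and 2.44 (class II), and single genes were at 0.44 (B2m), 0.41 (H2-K1), 0.21 (H2-D1), 1.54 (H2-T3), -0.047 (H2-M3), -0.88 (Cd1d1), 0.31 (Tap1), 0.034 (Tap2), 0.12 (Tapbp) and -0.57 (Nlrc5). With normexp, medians were 0.15 (the 10 genes), 0.26 (other heavy chains), -0.34 (receptors) and 2.13 (class II), and single genes were at 0.41 (B2m), 0.36 (H2-K1), 0.18 (H2-D1), 1.28 (H2-T3), -0.12 (H2-M3), -0.90 (Cd1d1), 0.28 (Tap1), -0.0067 (Tap2) and 0.12 (Tapbp). With quantile normalization, medians were 0.0075 (the 10 genes), -0.088 (other heavy chains) and -0.25 (T cell markers), and single genes were at 0.028 (B2m), -0.029 (H2-K1, and -0.017 on its other probe), -0.22 (H2-D1) and -0.013 (Tap2). With cyclic loess, medians were 0.14 (the 10 genes), 0.13 (other heavy chains) and -0.043 (T cell markers), and single genes were at 0.21 (B2m), 0.13 (H2-K1), -0.0084 (H2-D1), 0.027 (Tap2) and 0.15 (Tapbp). With probes above background on both arrays only, the medians were -0.24 (receptors) and 0.13 (T cells removed by the sort), and with plain ratios that of class II was 2.38.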

Other observations

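The spacing of TGACG and ATTGG by 25 bases was found in the promoters of 11 further genes outside the class I set, chosen for this after the promoters had been seen. Of these, 9 had a difference on the arrays, with 5 higher and 4 lower on the RFF4 array, a median of 0.17 and a range from -0.62 to 1.46.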
